A study of Mus musculus with 6 samples.

Results

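The genes examined here encode the TAM receptors, their ligands and the machinery that takes up apoptotic cells. They were Mertk, Axl, Gas6, Pros1, Mfge8, Elmo1, Dock1, Dock2, Gulp1 and Lrp1, chosen by name, and all 10 were found among the 15954 genes of the deposited table. Microglia came from the brains of wild-type (WT) mice and of LACTB enzymatic dead (ED) mice, with 3 mice and 3 libraries per genotype. ED mice carried the S162I change of LACTB, a mitochondrial serine hydrolase, on both alleles. Both genotypes were 3 months old with no further treatment named. The allele was made as a conditional knock-in in C57BL/6J embryonic stem cells, and the step that switched it on and the sex of the mice are not given in the sources used here. Cells were dissociated with enzymes and collected on beads against CD11b, a surface protein that microglia share with other myeloid cells. Values are normalized read counts, that is, reads per gene divided by 1 scaling factor per library.

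Apoptotic cells display the lipid phosphatidylserine on their surface as a signal for removal. Gas6 and Pros1 (protein S) bridge this lipid to the receptor tyrosine kinases Tyro3, Axl and Mertk, which give the TAM family its name, while Mfge8 bridges it to integrins. Inside the phagocyte, Elmo1 acts with Dock1 or Dock2 to activate the GTPase Rac, which drives the actin cup around the target. Lrp1 is a large endocytic receptor that can recognize cells marked by calreticulin, and Gulp1 is an adaptor that binds its cytoplasmic tail. In the brain, Mertk and Axl are the TAM receptors known from microglia, where they serve the removal of dying newborn neurons.

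The first question was which of these genes the isolated cells expressed, and at what level. The libraries held 23394686 to 28122336 reads in the listed genes, as inferred from the steps of the values. Microglial markers were abundant, with summed counts of 988312 to 1187220 in WT and 991419 to 1074820 in ED for the 10 genes listed, and none at 0. Transcripts of other brain cells were present at lower levels in every library. Neuron markers summed to 4470 to 4820 in WT and to 3151 to 4168 in ED over 12 genes, with no overlap between genotypes, and endothelial markers to 7166 in WT replicate 2 against 3228 to 4254 elsewhere over 10 genes. Genes of the response to dissociation were lower in ED for 10 of 12 (median -0.29 on the log2 scale), with a sum of 146154 in ED replicate 1 against 202718 to 298233 elsewhere. Markers of border-associated macrophages were higher for 9 of 10 (median 0.14). Their sums overlapped between genotypes, at 11559.2 to 14298.3 in WT and 12572.5 to 15646.5 in ED. In bulk RNA, fewer cells of a type and less RNA per cell cannot be told apart.

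Per kilobase of annotated exon, Mertk stood highest, followed by the ligand gene Gas6. Mertk averaged 5197 normalized reads per kilobase over the 6 libraries (4605 to 5561) and lay at the 98.9th percentile of 15922 genes. Gas6 averaged 3915 (3388 to 4476). Lrp1 at 2499 (1861 to 3328) and Pros1 at 2416 (2239 to 2741) overlapped, and each was the higher of the pair in 3 of 6 libraries. Elmo1 averaged 926 (886 to 961) and Dock2 860 (812 to 970), with overlapping ranges, and Elmo1 was the higher in 5 of 6 libraries. Axl was lower at 410 (321 to 483), then came Mfge8 at 229 (177 to 273) and Dock1 at 147 (133 to 175). Gulp1, at 4.89 (3.50 to 7.30), lay at the 6.85th percentile. For scale, the same measure was 50316 for Csf1r, the growth factor receptor gene of microglia, and 13.8 for Tyro3, the third TAM receptor gene.

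**Figure D1:**
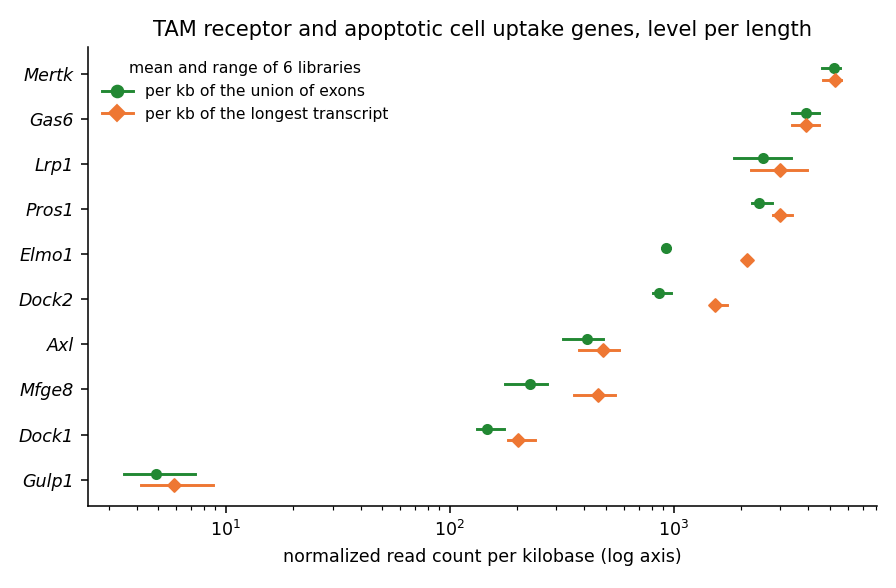
Level of each gene in normalized reads per kilobase on a log axis, with the mean (point) and the range (line) of the 6 libraries, for the union of exons and for the longest transcript. Mertk and Gas6 lead under both lengths and Gulp1 is last, at 4.89 per kilobase of exon.

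The order depended in part on the length used. With the longest annotated transcript in place of the union of exons, 8 of 10 genes kept their rank, and Pros1 (2990 per kilobase) and Lrp1 (2973) changed places. Elmo1 then came to 2132 per kilobase, Dock2 to 1533 and Mfge8 to 461, since much of their annotated exon sequence lies outside the longest transcript. The ranges of Axl at 484 and Mfge8 at 461 then overlapped, and Axl was the higher in 3 of 6 libraries. Those of Gas6 and Pros1 overlapped as well, though Gas6 was the higher in all 6 libraries.

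The main question was whether the loss of LACTB enzymatic activity altered these genes. By limma, 0 of the 10 genes had an adjusted p under 0.05, as did 0 of all 15954 genes, a background of 0%. Before adjustment, 0 of the 10 had a p under 0.05, against 1.82% of all genes (1.22% lower and 0.602% higher in ED). That balance rested on single libraries, since without WT replicate 3 it was 1.94% lower and 3.78% higher, and without WT replicate 1 it was 0.727% and 0.852%. By sign alone, 9 of the 10 were lower in ED (median -0.09 on the log2 scale) and Mertk was higher, while 51.4% of all genes were lower with a median of -0.0033. Of the 10 microglial markers, 9 were lower as well, with a median of -0.05. The smallest unadjusted p among the 10 was 0.130 for Axl (limma, adjusted p = 1.00). Apart from Gulp1, whose 95% interval ran from -0.99 to 0.52, the intervals of the differences lay between -0.51 and 0.43 on the log2 scale.

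**Figure D2:**
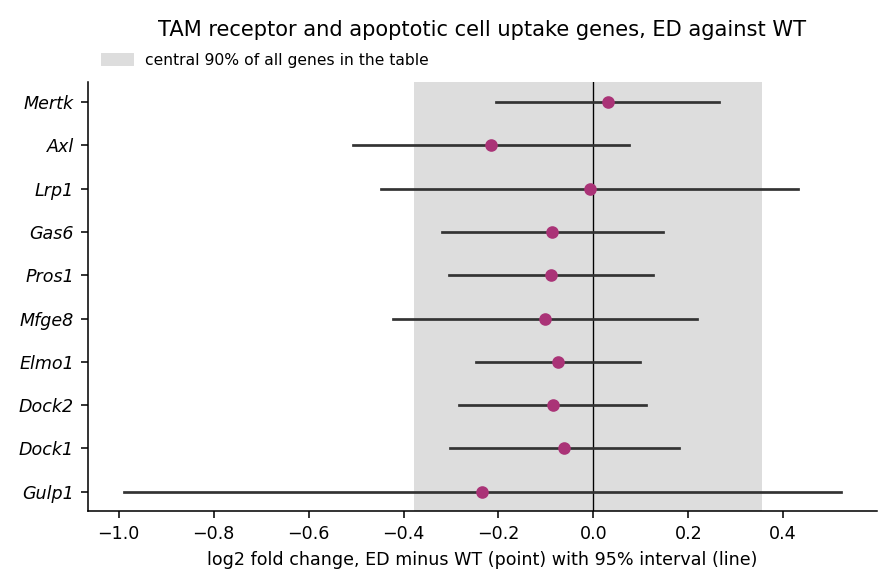
Log2 fold change of each gene, ED minus WT (point), with its 95% interval from limma (line), beside the central 90% of all genes in the table (grey, -0.38 to 0.35). All 10 intervals include 0, and that of Gulp1 is the widest.

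Mertk, the receptor kinase that dominates in macrophages, was at 24113, 19969 and 22887 normalized reads in WT and at 21367, 22789 and 24082 in ED. The genotypes overlapped throughout, at 22323 ± 2129 (SD, n = 3) and 22746 ± 1358 (SD, n = 3). Its log2 fold change was 0.03 (SE 0.10), with an interval of -0.21 to 0.27. Mertk lies on chromosome 2 of GRCm38, from 128698956 to 128802894 on the plus strand.

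Axl, the TAM receptor that inflammation and interferon are known to raise, had the lowest unadjusted p of the 10. It was at 2430, 2183 and 2020 in WT and at 1841, 1614 and 2305 in ED. Both ED replicates 1 and 2 lay below every WT library, while ED replicate 3 lay above WT replicates 2 and 3. The log2 fold change was -0.22 (SE 0.13), with an interval of -0.51 to 0.08. Without ED replicate 3 it was -0.35 (limma, unadjusted p = 0.0104, adjusted p = 1.00). That library also held the highest level of the neutrophil gene S100a9 (1059, against 73.1 to 523 elsewhere). Its markers of monocytes and neutrophils summed to 3757 over 11 measured genes of 12, against 706 to 2416 in the other libraries, with none at 0. Neuron markers in ED replicate 3 summed to 4168, the highest of the ED libraries but below the 4470 to 4820 of WT. The part of either set of markers in the Axl value was not tested.

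The balance of the receptor pair was also compared, because a ratio within a library does not depend on its scaling. The log2 ratio of Axl to Mertk reads, not corrected for length, was -3.31, -3.19 and -3.50 in WT and -3.54, -3.82 and -3.38 in ED. WT replicate 3 lay below ED replicate 3, so the genotypes overlapped. The difference was -0.25 (exact two-sided permutation test, p = 0.2), where 3 mice against 3 allow no p below 0.1. The remaining TAM receptor gene, Tyro3, averaged 82.8 ± 11.6 in WT and 88.1 ± 12.8 in ED (SD, n = 3).

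Among the ligand genes, Gas6 was at 9851, 11405 and 9566 normalized reads in WT and at 10235, 10166 and 8632 in ED. Pros1, which encodes the anticoagulant protein S as well as a TAM ligand, was at 10224, 11204 and 9153 in WT and at 9242, 10137 and 9298 in ED. For both, WT replicate 2 was the highest library and the genotypes overlapped. The log2 fold change was -0.09 for Gas6 (SE 0.10, interval -0.32 to 0.15) and -0.09 for Pros1 (SE 0.10, interval -0.30 to 0.13). The log2 ratio of Gas6 to Pros1 reads ranged from -0.05 to 0.06 in WT and from -0.11 to 0.15 in ED. The genotypes differed in this ratio by 0.0028 (exact permutation p = 1.0).

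Mfge8, the milk fat globule protein gene that links phosphatidylserine to integrins, was at 1061, 1280 and 985 in WT and at 1130, 1149 and 833 in ED. WT replicate 2 was again the highest library, and ED replicate 3 the lowest. The log2 fold change was -0.10 (SE 0.14), with an interval of -0.42 to 0.22. The integrin gene Itgb5, which encodes a subunit that receives Mfge8, was at 68148 ± 8913 in WT and 65902 ± 1570 in ED (SD, n = 3).

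Several other measures also peaked in WT replicate 2, where the 3 ligand genes were highest. Microglial markers summed to 1187220 there, against 988312 to 1074820 in the other libraries. The medians of genes under 2000 bases of exon (0.10) and of 2000 to 5000 bases (0.05) were highest there too. The latter class holds the 3 ligand genes and Gulp1, but also Mertk, which was lowest in that library. Endothelial markers there were 1.02 above the mean of the 6 libraries in mean log2 level, against -0.40 to 0.01 in the others. Markers of pericytes, smooth muscle and fibroblasts were 0.60 above, against -0.50 to 0.44, with a summed count of 4417 against 1472 to 2600. Gas6 stood 0.20, Pros1 0.19 and Mfge8 0.27 above their own means in that library, as did the adaptor gene Gulp1 at 0.59. The part of any of these in the values of the ligand genes was not tested. The log2 fold change of Mfge8 was 0.0059 without WT replicate 2 and 0.05 without ED replicate 3, and it passed no test in either case.

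**Figure D3:**
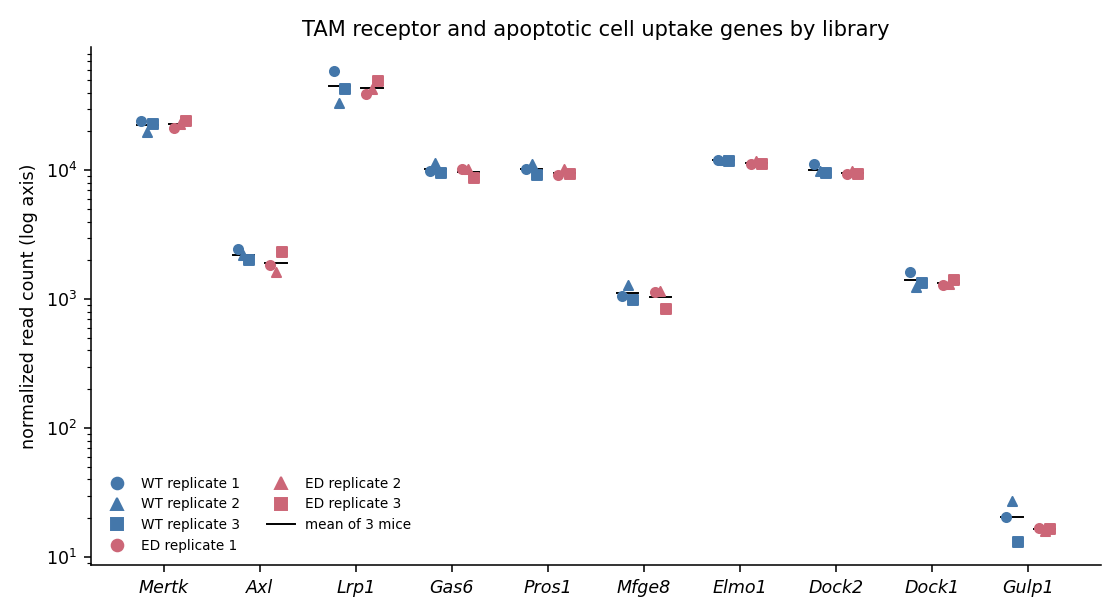
Normalized read counts of the 10 genes on a log axis, 1 point per mouse, with WT in blue and ED in red and the mean of 3 mice as a line. Point shapes give the replicate number. WT and ED points intermix for every gene except Elmo1, where the 3 ED mice lie below the 3 WT mice.

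Of the engulfment genes, Elmo1 was the steadiest and the only one of the 10 whose genotypes did not overlap. It was at 12091, 11975 and 11767 normalized reads in WT and at 11142, 11734 and 11170 in ED. ED replicate 2, at 11734, came close to the lowest WT library, at 11767. The difference was -0.07 on the log2 scale (SE 0.08), with an interval of -0.25 to 0.10 (limma, unadjusted p = 0.361). All 3 ED libraries lay below all 3 WT libraries for 1 of the 10 genes, against 3.42% of all genes. Over the 6 libraries the SD of Elmo1 was 0.05 on the log2 scale, and 7.67% of the 5084 genes with a mean of at least 1000 varied less.

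Dock2, the exchange factor for Rac that is restricted to blood-derived and microglial cells, was at 11083, 9849 and 9445 in WT and at 9400, 9884 and 9281 in ED. Dock1, its broadly expressed relative, was at 1635, 1240 and 1337 in WT and at 1299, 1314 and 1398 in ED. WT replicate 1 was the highest library for both, and otherwise the genotypes intermixed. The log2 fold changes were -0.09 for Dock2 (SE 0.09, interval -0.28 to 0.11) and -0.06 for Dock1 (SE 0.11, interval -0.30 to 0.18). Without WT replicate 1 that of Dock1 was 0.05. Libraries of WT gave 2.76 to 2.99 and those of ED 2.73 to 2.91 for the log2 ratio of Dock2 to Dock1 reads, a difference of -0.03 (exact permutation p = 0.9).

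The start regions of this pair are shown because both genes serve the same step while Dock2 had the higher level per kilobase in these cells, with Elmo1, their shared partner, beside them. Each window holds 250 bases before and 50 after the start given by RefSeq on GRCm38.p6. It is written 5' to 3' on the strand of the gene, in lower case, with capitals for an ETS-type motif (AGGAAGT, the kind of site that factors such as PU.1 bind) and for the GC box (GGGCGG), each searched on both strands. Windows are at chr11:34783856-34784155 on the minus strand for Dock2, chr7:134670437-134670736 on the plus strand for Dock1 and chr13:20090257-20090556 on the plus strand for Elmo1.
Dock2: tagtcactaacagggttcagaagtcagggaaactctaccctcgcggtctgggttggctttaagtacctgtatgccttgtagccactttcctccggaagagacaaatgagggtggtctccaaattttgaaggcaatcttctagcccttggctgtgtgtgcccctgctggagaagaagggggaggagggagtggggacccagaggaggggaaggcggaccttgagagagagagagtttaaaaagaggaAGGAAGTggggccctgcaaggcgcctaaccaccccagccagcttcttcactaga
Dock1: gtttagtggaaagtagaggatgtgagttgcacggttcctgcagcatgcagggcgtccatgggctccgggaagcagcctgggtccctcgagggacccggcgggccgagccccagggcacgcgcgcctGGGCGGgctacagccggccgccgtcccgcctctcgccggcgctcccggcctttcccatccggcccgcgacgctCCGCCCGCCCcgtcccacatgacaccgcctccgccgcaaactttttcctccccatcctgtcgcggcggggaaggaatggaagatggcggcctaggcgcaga
Elmo1: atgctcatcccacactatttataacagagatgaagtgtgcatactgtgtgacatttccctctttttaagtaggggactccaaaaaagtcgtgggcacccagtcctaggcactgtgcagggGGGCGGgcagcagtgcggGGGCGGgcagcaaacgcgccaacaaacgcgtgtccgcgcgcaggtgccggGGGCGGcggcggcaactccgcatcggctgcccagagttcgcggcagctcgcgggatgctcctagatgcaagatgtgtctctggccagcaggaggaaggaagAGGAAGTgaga
The Dock2 window held 1 ETS-type motif, which began 4 bases before the start, no GC box and 5 CpG pairs. Dock1 held no ETS-type motif, 3 GC boxes, some of which overlapped, and 34 CpG pairs. Elmo1 held 1 ETS-type motif, which began 39 bases after the start, 3 GC boxes and 21 CpG pairs. All 10 genes matched, with 11 windows, since Elmo1 has a further start. Dock2 and that further Elmo1 window were the 2 of 11 without a GC box. Over all 32851 windows of this length, 9.35% held AGGAAGT and 35.7% held GGGCGG, with a median of 7 CpG pairs. These matches describe the letters of the windows, and the motifs were picked after the levels were known.

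Gulp1, the engulfment adaptor gene, was near the lower limit of the table, where no gene had a mean below 9.87. It was at 20.4, 27.4 and 13.1 in WT and at 16.9, 16.0 and 16.4 in ED, so the 3 ED libraries lay within the WT range. The log2 fold change of -0.23 (SE 0.34) had the widest interval of the 10, from -0.99 to 0.52. These 3 mice per genotype cannot tell apart changes within that interval.

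Lrp1 varied more between mice of 1 genotype than between genotypes. It was at 58957, 32979 and 42829 normalized reads in WT and at 39041, 42861 and 48938 in ED, so WT held both the highest and the lowest library. The log2 fold change was -0.01 (SE 0.20), with an interval of -0.45 to 0.43. It was 0.21 without WT replicate 1 and -0.21 without WT replicate 2, so the sign rested on single libraries. The SD over the 6 libraries was 0.29 on the log2 scale, above that of 96.8% of genes with a mean of at least 1000.

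The order of libraries seen for Lrp1 was nearly that of Mertk, of Dock1 and of genes with long annotated exon sequence as a class. The log2 levels of Mertk and Lrp1 had a Pearson r of 0.93 over the 6 libraries. Relative to the mean of the 6 libraries, Lrp1 (17717 bases of annotated exon) stood at 0.44 in WT replicate 1 and -0.40 in WT replicate 2 on the log2 scale. Mertk stood at 0.10 and -0.17 in these libraries, and Dock1 at 0.26 and -0.14. Mertk has 4336 bases of annotated exon. The medians of the exon length class that holds Mertk were -0.03 in WT replicate 1 and 0.05 in WT replicate 2. The median of 1255 genes with at least 10000 bases of exon was 0.13 and -0.12, while that of 1682 genes under 2000 bases was -0.04 and 0.10. Dock2 and Elmo1 also have over 10000 bases of annotated exon, but their longest transcripts have 6409 and 5464 bases, against 14888 for Lrp1. Neither gene was lowest in WT replicate 2. The part of transcript length or RNA quality in the Lrp1, Mertk and Dock1 values was not tested.

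**Figure D4:**
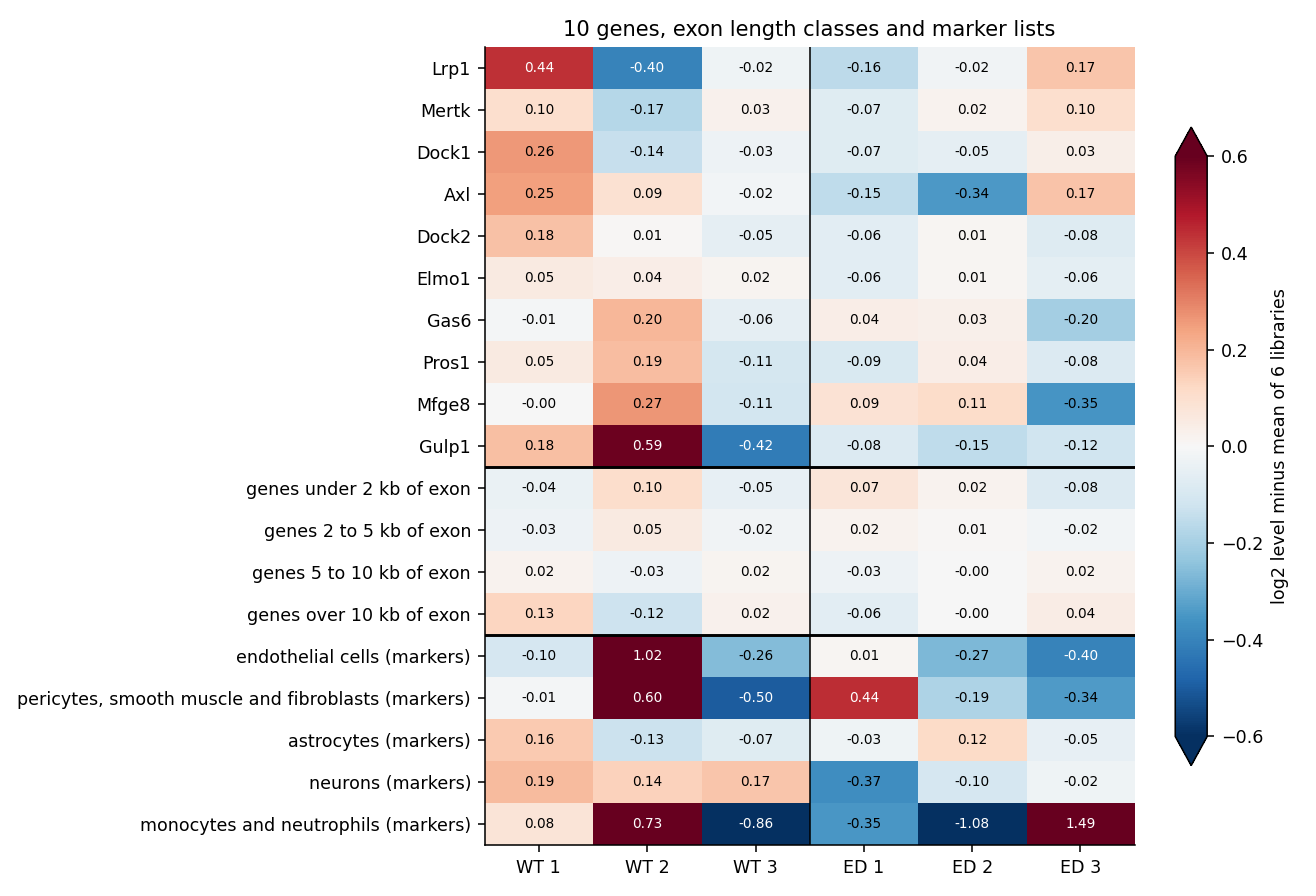
Deviation of each library (column) from the mean of the 6 libraries on the log2 scale, for the 10 genes (top), the median of genes by exon length (middle) and the mean of marker lists (bottom). Red is higher and blue is lower, and colours stop at 0.6 in either direction. Lrp1 is highest in WT replicate 1 and lowest in WT replicate 2, while Gas6, Pros1, Mfge8 and Gulp1 peak in WT replicate 2 with the vascular markers.

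Genes whose pattern over the 6 libraries was most like that of the receptors were listed as a description. For Mertk these were Rictor (Pearson r = 0.995), Mgat4a (0.993) and Cpeb2 (0.992), and 150 genes reached 0.95. Rictor, a subunit gene of the mTORC2 kinase, was at 1065, 680 and 942 in WT and at 784, 892 and 1038 in ED, lowest in WT replicate 2 as Mertk was. For Axl they were Arhgap44 (0.985), Pak3 (0.983) and Rasgrf2 (0.978), and 16 genes reached 0.95. The 6 points share library depth and cell makeup, and with so few of them high values arise readily among 15954 genes.

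Overlapping transcripts touched these genes little in the annotation. Of their exon bases, 4.03% of Dock2 and 3.20% of Elmo1 overlap antisense RNA genes that are not analysed here, and 1.33% of Gas6 overlap the gene Tmem255b, at a mean of 15.9 reads. Antisense or neighbouring reads cannot be told apart where counting ignored strand.

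The wider uptake pathway was compared through 8 lists with 161 measured genes of 169. None passed after adjustment with limma (0 of 161). Before adjustment, a p under 0.05 was found for 3 lower genes (1.86%) and 1 higher gene (0.621%), against 1.22% and 0.602% of all genes. ED lay wholly below WT for 6 (3.73%) and wholly above for 2 (1.24%), against 3.42% and 2.32% of all genes. By sign, 103 of the 161 (64.0%) were lower in ED, against 51.4% of all genes, a share against which the counts of each list below are to be read.

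Partners of the TAM receptors were even. Of 16 measured genes for ligand maturation, receptor shedding and downstream signals, 9 were higher in ED and 7 lower (median 0.0067 on the log2 scale). The smallest unadjusted p was that of Ggcx, the enzyme that carboxylates Gas6 and protein S so that they can bind phosphatidylserine, at 832 ± 113 in WT and 917 ± 45.2 in ED (SD, n = 3). Adam10, whose product can shed TAM receptors from the surface, had the highest mean of the list, at 10722 ± 1079 and 10034 ± 320 (SD, n = 3), and overlapped between genotypes.

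Other receptors for apoptotic cells had 13 of 24 measured genes lower and a median of -0.02. Trem2, a lipid-sensing microglial receptor gene, averaged 40745 ± 4077 in WT and 40906 ± 3098 in ED (SD, n = 3), a log2 fold change of 0.0076. Cd300a, an inhibitory receptor gene for phosphatidylserine, was at 4032 ± 362 and 4435 ± 458, with an interval of -0.09 to 0.36. Among bridging, eat-me and do-not-eat-me genes 9 of 15 were lower, with a median of -0.01. Siglecg, a sialic acid receptor gene that takes the Cd24a product as a do-not-eat-me signal, was the 1 gene of the pathway with an unadjusted p under 0.05 in the higher direction. It was at 202, 191 and 247 in WT and at 294, 252 and 316 in ED, without overlap, a log2 fold change of 0.43 (SE 0.15, unadjusted p = 0.0153 and adjusted p = 1.00 with limma). The unadjusted p was 0.0513 without WT replicate 1 and 0.0585 without ED replicate 3. Cd24a itself was at 130 ± 37.5 and 152 ± 23.0.

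The gene of the pathway with the smallest p belonged to the engulfment machinery. Of 37 measured ELMO and DOCK relatives and Rac or actin genes 29 were lower, with a median of -0.05. Nckap1, a subunit gene of the WAVE complex that builds branched actin, was at 402, 422 and 385 in WT and at 308, 307 and 302 in ED, without overlap. Its log2 fold change was -0.40 (SE 0.10, unadjusted p = 0.00309, adjusted p = 1.00 with limma). Nckap1l, the blood-cell counterpart of the same subunit, was at 28825 ± 2376 and 28452 ± 809 (SD, n = 3), a log2 fold change of -0.02. Wasf1, another WAVE gene prominent in neurons, was at 132 ± 13.4 and 97.0 ± 23.2, and Wasf2, the form prominent in blood cells, at 18155 ± 872 and 17453 ± 647.

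Of the genes around Lrp1, 17 of 23 measured were lower, with a median of -0.05. Mapk8ip2, a scaffold gene that binds tails of this receptor family, was at 232 ± 20.4 in WT and 180 ± 13.9 in ED (SD, n = 3), a log2 fold change of -0.37 (unadjusted p = 0.0213 with limma). Apbb1, an adaptor gene that links Lrp1 with the amyloid precursor protein, was at 436 ± 27.8 and 360 ± 11.9, a log2 fold change of -0.28 (unadjusted p = 0.0235 with limma). Neither passed after adjustment (adjusted p = 1.00 for both). The unadjusted p of Mapk8ip2 rose to at most 0.0823, without WT replicate 1, and that of Apbb1 to at most 0.0683, without ED replicate 3. Nckap1, Wasf1, Mapk8ip2 and Apbb1 are all well expressed in neurons, and neuron markers were also lower in ED, 11 of 12 of them with a median of -0.34. The neuron markers Snap25 and Nefm had the highest means of their list. The part of neuronal RNA in these values was not tested.

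Later and earlier steps of uptake showed no change that passed. Find-me receptors and channels had 7 of 9 lower with a median of -0.05, phagosome maturation and digestion 14 of 25 lower with a median of -0.0032, and genes for phosphatidylserine exposure 7 of 12 lower with a median of -0.02. Among them, P2ry2, a receptor gene for nucleotides released by dying cells, was at 48.0 ± 6.13 in WT and 34.1 ± 17.2 in ED (SD, n = 3). Nr1h2, which encodes a sterol receptor active after engulfment, was at 3507 ± 381 and 3776 ± 202.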

How the data were processed

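PolyA RNA of isolated brain microglia was sequenced for 3 WT and 3 ED mice, 1 library per mouse, and grouped by sample title. One line of the series text calls the cells iMGLs, while the labels give brain. The submitters' processing notes name Trimmomatic 0.36, STAR 2.5.2b, featureCounts of Subread 1.5.2, DESeq2 and GRCm38. The study's methods for bulk RNA name a human genome instead, while all identifiers are of mouse genes. No source used here gives the strand setting. The signal values deposited by the authors are reads per gene scaled by 1 size factor for each library, and all were whole multiples of 1 step per library (tolerance 0.0001 of a step), from which depth was inferred. Because the smallest value in each ED library stood for 2 reads, that step was inferred from spacing and no count model was run. The authors' deposited log2 fold change and p-value columns were not used.

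Values were tested as log2(value + 1) with limma 3.58.1 in R 4.3.3 (genotype only, mean-variance trend, Benjamini-Hochberg over 15954 genes), so fold changes of low genes are understated. Ratios were tested by exact permutation. The procedure was tested on simulated data. Exon lengths and coordinates came from GENCODE M21 on GRCm38, which matched 15922 identifiers, and 22 names were restored from identifiers. For a name on several rows the highest mean was used. The 10 genes, lists and tests were chosen with earlier results of these data known. Named genes were the 10, the 3 with the highest Pearson r to Mertk and to Axl (predicted genes left out), and from each pathway list the 3 with the smallest p and the 2 with the highest mean, and from each cell type list the 2 with the highest mean. Tyro3, Wasf2, Tmem255b and those named for library weights were chosen after their values were seen. The tests measure the spread between 3 mice. Alternatives were other pseudocounts, a filter at a mean of 50, rescaling, no trend, library weights, a replicate block and leaving out each library. One gene of the pathway lists is not reported here.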

Additional observations from a re-analysis of the deposited data

How the results depend on the processing

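The count of 0 of the 10 genes past an adjusted p of 0.05 held under every alternative run. With library weights 4 genes of the table passed (Cst7, Fn1, Gpnmb and Spp1, none of the 10), and 3 of the 10 had an unadjusted p under 0.05, where 6.84% of all genes were lower and 4.19% higher, against 1.22% and 0.602% without weights. These were Axl at -0.43 (limma, unadjusted p = 0.00147, adjusted p = 0.248), Dock1 at -0.23 and Lrp1 at -0.32. Those weights ran from 0.35 for WT replicate 2 to 3.23 for ED replicate 2, with 2.80 for WT replicate 1. In each genotype 1 mouse thus carried most of the weight. Axl, Dock1 and Lrp1 were each highest in WT replicate 1. Without single libraries the count of the 10 at an unadjusted p under 0.05 ranged from 0 to 1, which was Axl without ED replicate 3 (2.38% of all genes), and that of all genes past adjustment stayed at 0. The share of all genes at an unadjusted p under 0.05 ran from 1.35% to 5.72%. The number of the 10 lower in ED was 7 to 9 under the alternatives. Signs of small differences turned with library weights for Mertk (-0.054), Gas6 (0.0055), Mfge8 (0.045) and Cd47, a do-not-eat-me gene (-0.013), and the cause was not tested. Leaving out each library in turn moved the log2 fold change from -0.048 to 0.088 for Mertk, -0.18 to 0.049 for Mfge8, -0.15 to 0.054 for Dock1, -0.50 to 0.0017 for Gulp1, -0.21 to 0.21 for Lrp1, -0.17 to 0.0053 for the nucleotide receptor gene P2ry6 and -0.17 to 0.0070 for the channel gene Panx1. The range was -0.35 to -0.10 for Axl, -0.14 to -0.0060 for Gas6, -0.16 to -0.018 for Pros1, -0.13 to -0.019 for Dock2 and -0.098 to -0.061 for Elmo1. The ratio of Dock2 to Dock1 ran from -0.073 to 0.041, that of Gas6 to Pros1 from -0.063 to 0.064 and that of Axl to Mertk from -0.34 to -0.13. The sample labels do not say whether mice of the same replicate number were paired. Deviations from the genotype means correlated at -0.25, 0.05 and 0.35 between libraries of the same number, too few values to settle this. With the number as a block 0 of the 10 and 0 of all genes passed, with 1.38% of all genes lower and 1.15% higher at an unadjusted p under 0.05. Axl then stood at -0.22 (limma, unadjusted p = 0.111), and no other call changed. The filter at a mean of 50 left out Gulp1. The planned refits with count models were not run.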
